A study of Arabidopsis thaliana with 21 samples.

Results

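The genes described here were those whose signal rose with the dose of ABA2 in Arabidopsis thaliana, from the aba2 mutant through the wild type Col-0 to the line ABA2-OE. They were selected on the measured group means of these 3 genotypes. A probe set was a member where its mean log2 signal was at least 0.5 lower in aba2 than in Col-0, at least 0.5 higher in ABA2-OE than in Col-0, and at least 7 over all arrays. Of 22746 probe sets, 43 met these thresholds. The cold- and ABA-induced genes COR15A and LTI30, the expansin gene EXPA16 and 1 further probe set, 4 in all, were left out by the selection rule, which left 39 members. The annotation gave 1 gene for 17 of the 39, several for 2 and none for 20, and probe sets without a single gene are called by their identifier.

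RNA came from the aerial parts of soil-grown plants aged 21 days and was hybridised to 21 single-channel Affymetrix arrays, 3 for each of 7 genotypes. Beside Col-0 there were 2 single mutants, aba2 and ga20ox1, and 2 lines whose OE stands for overexpression, ABA2-OE and GA20OX1-OE. The aba2 mutation was also combined with the GA mutation, as aba2/ga20ox1, and with the GA transgene, as aba2/GA20OX1-OE. Every genotype had Col-0 as its background. The labels give neither the promoters of the transgenes nor the number of independent lines, nor whether replicate arrays stand for separate plants, so the p-values cover the spread among replicate arrays, which may be technical. In bulk tissue, fewer cells of a type and less RNA per cell cannot be told apart. The question of the series, per its title, is how ABA and GA act on each other in leaf development.

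Abscisic acid (ABA) is a hormone of drought and cold responses, seed dormancy and growth restraint. Its last synthesis steps run from xanthoxin, which the short-chain dehydrogenase ABA2 converts to abscisic aldehyde, so that aba2 mutants hold little ABA. When ABA binds its receptors, clade A protein phosphatases are held back, and the kinases and transcription factors that switch on stress genes become active. GA20OX1 encodes a GA 20-oxidase, an enzyme of gibberellin (GA) synthesis that promotes the growth of stems and leaves. ABA and GA oppose each other in germination and growth. The dose named here is that of the genotype: neither ABA content nor, under a gene name, the ABA2 transcript was followed.

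The array medians of the linear signal lay between 130.4 and 187.5, and log2 signals of arrays of 1 genotype correlated at 0.942 to 0.953 across probe sets. RCA, the activase of the carbon-fixing enzyme Rubisco and the only leaf marker of 7 that the annotation named, was at 14.47 to 15.24 on all 21 arrays. None of the 7 flower markers and none of the 4 seed markers was named by the annotation, so these tissues were not checked. Replicate 2 of GA20OX1-OE and replicate 3 of aba2/GA20OX1-OE, the latter with the highest array median, were doubted in earlier work on these data. The sample titles mark neither as faulty, and the median of the former, 155.6, lay within the range of the other arrays. The doubt was not tested here, and counts that move without both arrays are given.

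The values that chose the members are a description and carry no test. The difference of ABA2-OE from Col-0 ran from 0.51 to 0.88 over the members, with a median of 0.59, and that of aba2 from Col-0 from -2.78 to -0.51, with a median of -0.89. The step down to aba2 was larger than the step up to ABA2-OE for 33 members. All 3 ABA2-OE arrays were above all 3 Col-0 arrays for 18 members, and all 3 Col-0 arrays were above all 3 aba2 arrays for 34. The upper step was therefore within the overlap of single arrays for 21 members, whose place among the members rests on group means.

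Close to the thresholds, AT3G15450 (aba2 -0.59, ABA2-OE 0.51, each against Col-0) and AT5G01075 (-0.52 and 0.51) lay just inside. Just outside were AT5G13200, of the GRAM domain family, with -0.94 and 0.4942, and AT4G16750, of the AP2/ERF transcription factor family, with -0.4962 and 0.52. These margins were small against the spread: the SD of the members between arrays of ABA2-OE had a median of 0.34. Leaving out single arrays changed the membership accordingly, from 24 probe sets without ABA2-OE replicate 2, of which 18 were among the 39, to 53 without ABA2-OE replicate 3, of which 31 were. No probe set remained at thresholds of 1 in place of 0.5.

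In the 4 genotypes with altered GA20OX1, which the rule did not compare, the median of the members differed with the state of ABA2, though not every member did. Each array was summarised by the median, over the 39 members, of the log2 signal minus the member's own mean over 21 arrays. This median was 0.29, 0.21 and -0.02 on the ga20ox1 arrays and 0.51, 0.24 and 0.17 on the GA20OX1-OE arrays. It was -0.69, -0.72 and -0.47 on the aba2/ga20ox1 arrays and -0.35, -0.22 and -0.45 on the aba2/GA20OX1-OE arrays. Every array with an intact ABA2 gene thus lay above every array with the aba2 mutation, and the ga20ox1 and GA20OX1-OE arrays overlapped. The Col-0 arrays, at 0.27 to 0.39, lay within the range of those of GA20OX1-OE.

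**Figure D1:**
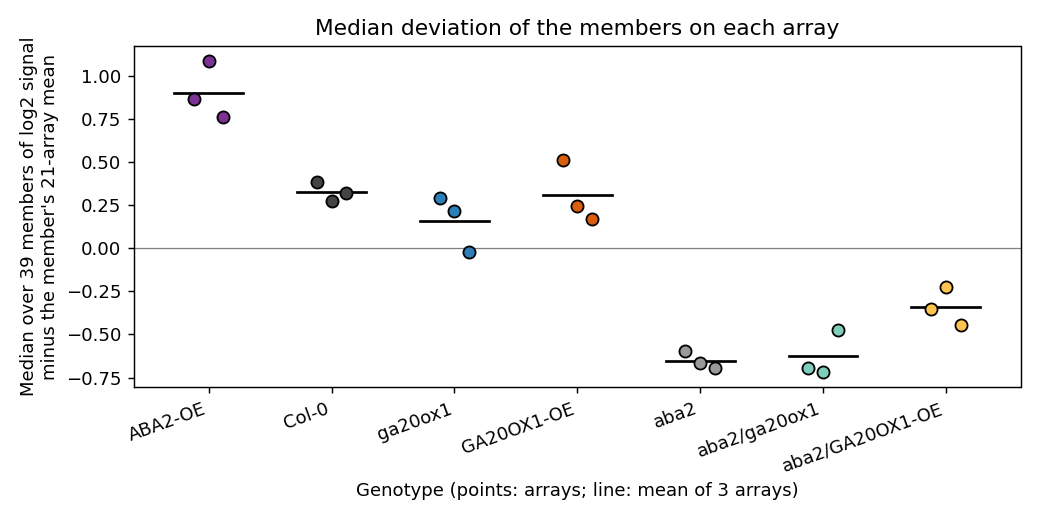
Median deviation of the 39 members on each of the 21 arrays (y axis, log2 signal minus the member's mean over all arrays) by genotype (x axis, points for arrays, line for the mean of 3). ABA2-OE is highest at 0.76 to 1.09 and aba2 lies at -0.70 to -0.60, both set by the choice of members, while aba2/ga20ox1 (-0.72 to -0.47) and aba2/GA20OX1-OE (-0.45 to -0.22), which the rule did not use, lie below the other 2 GA genotypes.

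Set against Col-0, whose arrays the rule used, the median of the members was -0.21 in ga20ox1, -0.12 in GA20OX1-OE, -0.87 in aba2/ga20ox1 and -0.62 in aba2/GA20OX1-OE. Over the 11945 probe sets with a mean of at least 7 the same medians lay between -0.01 and 0.06. The rule sets Col-0 above aba2 and below ABA2-OE, so the order of the genotype means is partly fixed by the choice of members and is given as a description. The lowest mean was in a genotype with the aba2 mutation for all 39: aba2 for 21, aba2/ga20ox1 for 10 and aba2/GA20OX1-OE for 8. The highest mean was in ABA2-OE for 36 members. The other 3 were 253172_at and 256601_s_at, highest in GA20OX1-OE, and AT1G57590, highest in aba2/GA20OX1-OE.

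**Figure D2:**
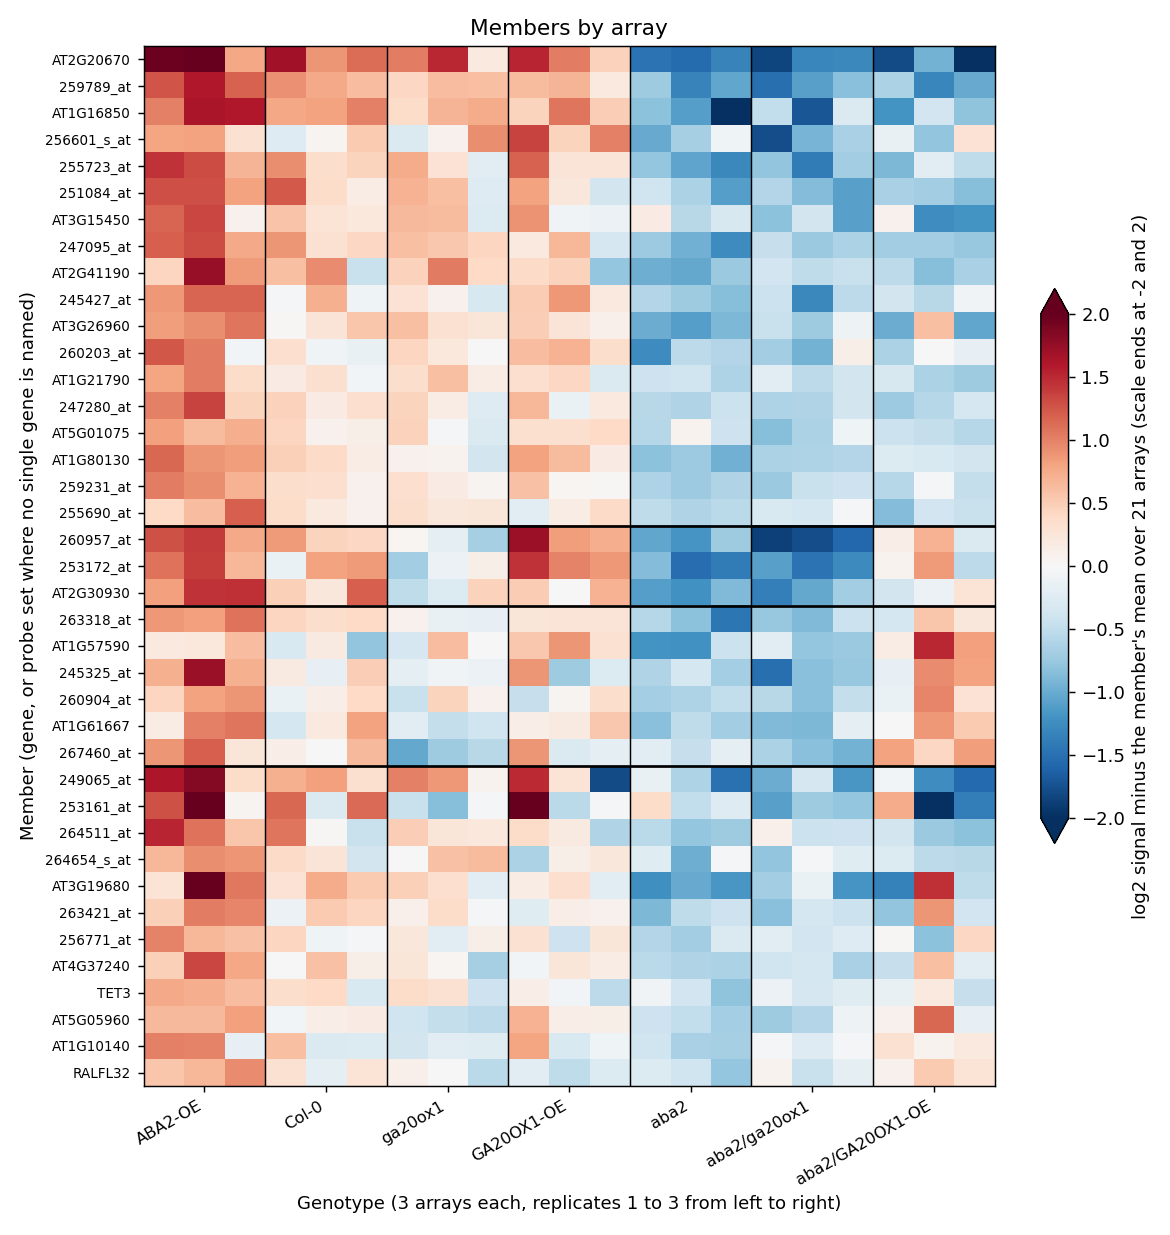
Log2 signal of each member minus its mean over 21 arrays (colour, scale ends at -2 and 2) for the 39 members (vertical axis) on the 21 arrays (horizontal axis, 3 per genotype). From the top, the bands hold 18 members lower without ABA2 over both GA backgrounds, 3 that were also higher in aba2/GA20OX1-OE than in aba2/ga20ox1, 6 with only the latter difference, and 12 with no call. The columns of aba2/ga20ox1 are mostly blue, and those of aba2/GA20OX1-OE are mixed in the middle bands.

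Loss of ABA2 was then tested in each GA background. In ga20ox1, 10 members fell and 0 rose in aba2/ga20ox1 (limma, adjusted p under 0.05), which is 25.6% of the members, where 2.56% of the 15923 probe sets tested fell and 2.88% rose. Among the 11945 probe sets as bright as the members, with a mean of at least 7, the share that fell was 2.97%. The median difference was -0.72 over the members and -0.04 over all tested, and 37 of 39 members had a negative difference, beside 54.8% of all tested. All aba2/ga20ox1 arrays were below all ga20ox1 arrays for 27 members (69.2%), against 10.7% of all tested. In GA20OX1-OE, 10 members fell and 0 rose in aba2/GA20OX1-OE, where 1.8% of all tested fell and 2.73% rose. The median was -0.69 against 0.0018 over all tested, 30 members had a negative difference beside 49.7% of all tested, and the arrays were apart in the same way for 17 members (43.6%), against 8.99%. With array quality weights, 29 members were called lower in ga20ox1 and 18 in GA20OX1-OE. The share of all probe sets called under this and the next settings is not given, so these counts are of members alone. Without the pair of doubted arrays the count in GA20OX1-OE was 4, and without GA20OX1-OE replicate 1 it was 3.

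The mean of both effects of aba2, which uses all 12 arrays of the GA genotypes, called more members. In this mean effect 21 members fell and 0 rose, where 5.4% of all tested fell and 6.28% rose. The median over the members was -0.70, beside -0.02 over all tested, and single members ranged from -2.71 to 0.29. Of the 21, 6 were called lower in both backgrounds on their own, and 14 of the 39 in at least 1. For 17 of the 21 the call held under each of the 30 other settings that gave a value for the member. Here and below, leaving out an array outside the groups compared keeps the difference and changes only its SE and adjusted p. Such settings are weaker checks. On the 12 GA arrays alone, without any array the rule compared, all 21 were called. The summed level of the root markers, 3 named of 5, was lower with aba2 too. It was 10.65 to 10.83 in ga20ox1 and 9.93 to 10.26 in aba2/ga20ox1. In GA20OX1-OE it was 10.11 to 10.73, and in aba2/GA20OX1-OE 8.31 to 9.51. Of these markers, PYK10 fell in the mean effect (-1.16, limma adjusted p = 0.00012) and EXPA18 was not called (-0.25, limma adjusted p = 0.76). Their part in the members' differences was not tested.

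AT2G20670, which encodes a DUF506 family protein of unknown function, had the lowest value in both backgrounds. Its log2 signal was 8.40, 8.88 and 7.56 on the ga20ox1 arrays and 5.54, 6.06 and 6.08 on those of aba2/ga20ox1. In GA20OX1-OE it was 8.89, 8.39 and 7.83, and in aba2/GA20OX1-OE 5.58, 6.42 and 3.99. The arrays with and without the aba2 mutation did not overlap, and aba2/GA20OX1-OE replicate 3 was lowest by a wide margin. AT2G20670 fell 5.22-fold in ga20ox1 (log2 difference -2.38, SE 0.49, limma adjusted p = 0.0043) and 8.24-fold in GA20OX1-OE (-3.04, adjusted p = 0.00044), a mean effect of -2.71 (SE 0.34, adjusted p = 1.2e-05). The fold in GA20OX1-OE rested on that array, whose signal lay under the low-signal bound of 5.257: without it the fall was 5.18-fold (-2.37, adjusted p = 0.0031). With a pseudocount of 20.1 the difference in GA20OX1-OE was -2.47 and the mean effect -2.26. The same gene was at 9.33, 10.14 and 8.15 in ABA2-OE and at 5.89, 5.83 and 6.03 in aba2, so the combinations lay at about the level of the single mutant.

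The probe set 259789_at, for which the annotation gave no gene, had the smallest p among the members and was singled out after its values were seen. It was at 12.06, 12.26 and 12.25 in ga20ox1 and at 10.14, 10.57 and 10.81 in aba2/ga20ox1. In GA20OX1-OE the arrays read 12.27, 12.33 and 11.85, and in aba2/GA20OX1-OE 11.01, 10.34 and 10.64. The groups were apart by more than a log2 unit at their nearest arrays in ga20ox1, and its mean effect was a fall of 3.0-fold (-1.58, SE 0.14, limma adjusted p = 6.9e-08).

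AT1G16850, a membrane protein gene known to respond to salt and ABA, had the largest step between Col-0 and aba2 among the members (-2.78). AT2G20670 followed with -2.68. The rank of AT1G16850 rests on 1 aba2 array, at 3.22, which lay under the low-signal bound. The signals of AT1G16850 were 7.41, 7.71 and 7.78 in ga20ox1 against 6.54, 5.32 and 6.76 in aba2/ga20ox1. They were 7.49, 8.11 and 7.53 in GA20OX1-OE against 5.85, 6.66 and 6.23 in aba2/GA20OX1-OE. Neither pair of groups overlapped. AT1G16850 fell in the mean effect (-1.44, SE 0.36, limma adjusted p = 0.0093), while its single effects, -1.43 and -1.46, did not pass the test (adjusted p = 0.11 and 0.12). The aba2 arrays read 6.21, 5.93 and 3.22, and in a fit without the last of these both single effects passed (adjusted p = 0.0069 and 0.0063).

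AT3G15450, a gene known to rise in darkened and sugar-starved leaves, was the member with the highest signal, 12.38 on average. It stood at 13.03, 13.02 and 12.10 in ga20ox1 and at 11.55, 12.01 and 11.30 in aba2/ga20ox1. In GA20OX1-OE it was 13.28, 12.31 and 12.26, and in aba2/GA20OX1-OE 12.46, 11.14 and 11.19. The first pair of groups did not overlap and the second did, through aba2/GA20OX1-OE replicate 1. AT3G15450 fell in the mean effect by 2.08-fold (-1.06, SE 0.25, limma adjusted p = 0.0069), and its effects in the single backgrounds, -1.10 and -1.02, missed the threshold (adjusted p = 0.081 and 0.12).

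Among transport, membrane and wall genes, AT2G41190 belongs to an amino acid transporter family, AT1G21790 encodes a TLC domain membrane protein, and AT3G26960 is of the pollen Ole e 1 allergen family of secreted proteins. AT2G41190 was at 7.65, 8.22 and 7.59 in ga20ox1, 7.57, 7.64 and 6.41 in GA20OX1-OE, 6.80, 6.68 and 6.75 in aba2/ga20ox1 and 6.66, 6.34 and 6.54 in aba2/GA20OX1-OE. Only GA20OX1-OE replicate 3 reached down into the range of the arrays without ABA2. Its mean effect was -0.89 (SE 0.25, limma adjusted p = 0.02), and the call ended without ga20ox1 replicate 2, GA20OX1-OE replicate 1 or GA20OX1-OE replicate 2 (adjusted p = 0.065, 0.06 and 0.064), and without the pair of doubted arrays (0.08).

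AT1G21790 read 9.22, 9.48 and 9.03 in ga20ox1 and 8.66, 8.35 and 8.50 in aba2/ga20ox1. Its values were 9.21, 9.29 and 8.59 in GA20OX1-OE and 8.56, 8.25 and 8.16 in aba2/GA20OX1-OE. Within each background the groups did not overlap, though in the second only narrowly. AT1G21790 fell by a similar amount in ga20ox1 (-0.74, limma adjusted p = 0.027) and in GA20OX1-OE (-0.71, adjusted p = 0.036), with a mean effect of -0.72 (SE 0.14, adjusted p = 0.00097). The call in ga20ox1 ended without ga20ox1 replicate 2, aba2/ga20ox1 replicate 2 or replicate 3 (adjusted p = 0.15, 0.09 and 0.086), on the 12 GA arrays alone (0.051) and after quantile normalization (0.061). That in GA20OX1-OE ended without replicate 1 or 2 of GA20OX1-OE or replicate 2 or 3 of aba2/GA20OX1-OE (adjusted p from 0.11 to 0.2), without the pair of doubted arrays (-0.50, adjusted p = 0.35), with no intensity trend (0.056) and on the 12 GA arrays alone (0.067).

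AT3G26960 was 10.64, 10.35 and 10.28 in ga20ox1 and 9.59, 9.32 and 9.93 in aba2/ga20ox1, with no overlap. In GA20OX1-OE it was 10.53, 10.29 and 10.14, and in aba2/GA20OX1-OE 9.04, 10.63 and 9.0. Replicate 2 of the latter was above every GA20OX1-OE array, apart from its other 2 arrays. The mean effect was -0.79 (SE 0.20, limma adjusted p = 0.01). Without that array the effect in GA20OX1-OE was -1.30 (adjusted p = 0.00018), and without the pair of doubted arrays the mean effect was not called (-0.66, adjusted p = 0.054).

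AT1G80130, which encodes a tetratricopeptide repeat protein, and AT5G01075 were lower by similar amounts. AT1G80130 was 7.40, 7.39 and 6.95 in ga20ox1, 8.12, 7.95 and 7.49 in GA20OX1-OE, 6.69, 6.70 and 6.74 in aba2/ga20ox1, and 7.04, 7.02 and 6.95 in aba2/GA20OX1-OE. Each genotype with aba2 was below its own GA parent on every array, and the arrays of both combinations varied little among themselves. AT1G80130 fell in GA20OX1-OE (-0.85, limma adjusted p = 0.0085), a call that ended without GA20OX1-OE replicate 1 or 2 (adjusted p = 0.062 and 0.051) and without the pair of doubted arrays (-0.77, adjusted p = 0.11). In ga20ox1 the difference was -0.54 (adjusted p = 0.1), and the mean effect was -0.69 (SE 0.13, adjusted p = 0.001).

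AT5G01075 was 8.28, 7.77 and 7.52 in ga20ox1 and 6.96, 7.19 and 7.73 in aba2/ga20ox1, where the arrays overlapped. It was 8.13, 8.13 and 8.21 in GA20OX1-OE and 7.38, 7.33 and 7.25 in aba2/GA20OX1-OE, where they did not. AT5G01075 fell in GA20OX1-OE (-0.83, limma adjusted p = 0.023), though leaving out any array of that background ended the call (adjusted p from 0.053 to 0.077), as did leaving out the pair of doubted arrays (0.16) and fitting the 12 GA arrays alone (0.059). In ga20ox1 it differed by -0.56 (adjusted p = 0.14), and its mean effect was -0.70 (SE 0.15, adjusted p = 0.0029).

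**Figure D3:**
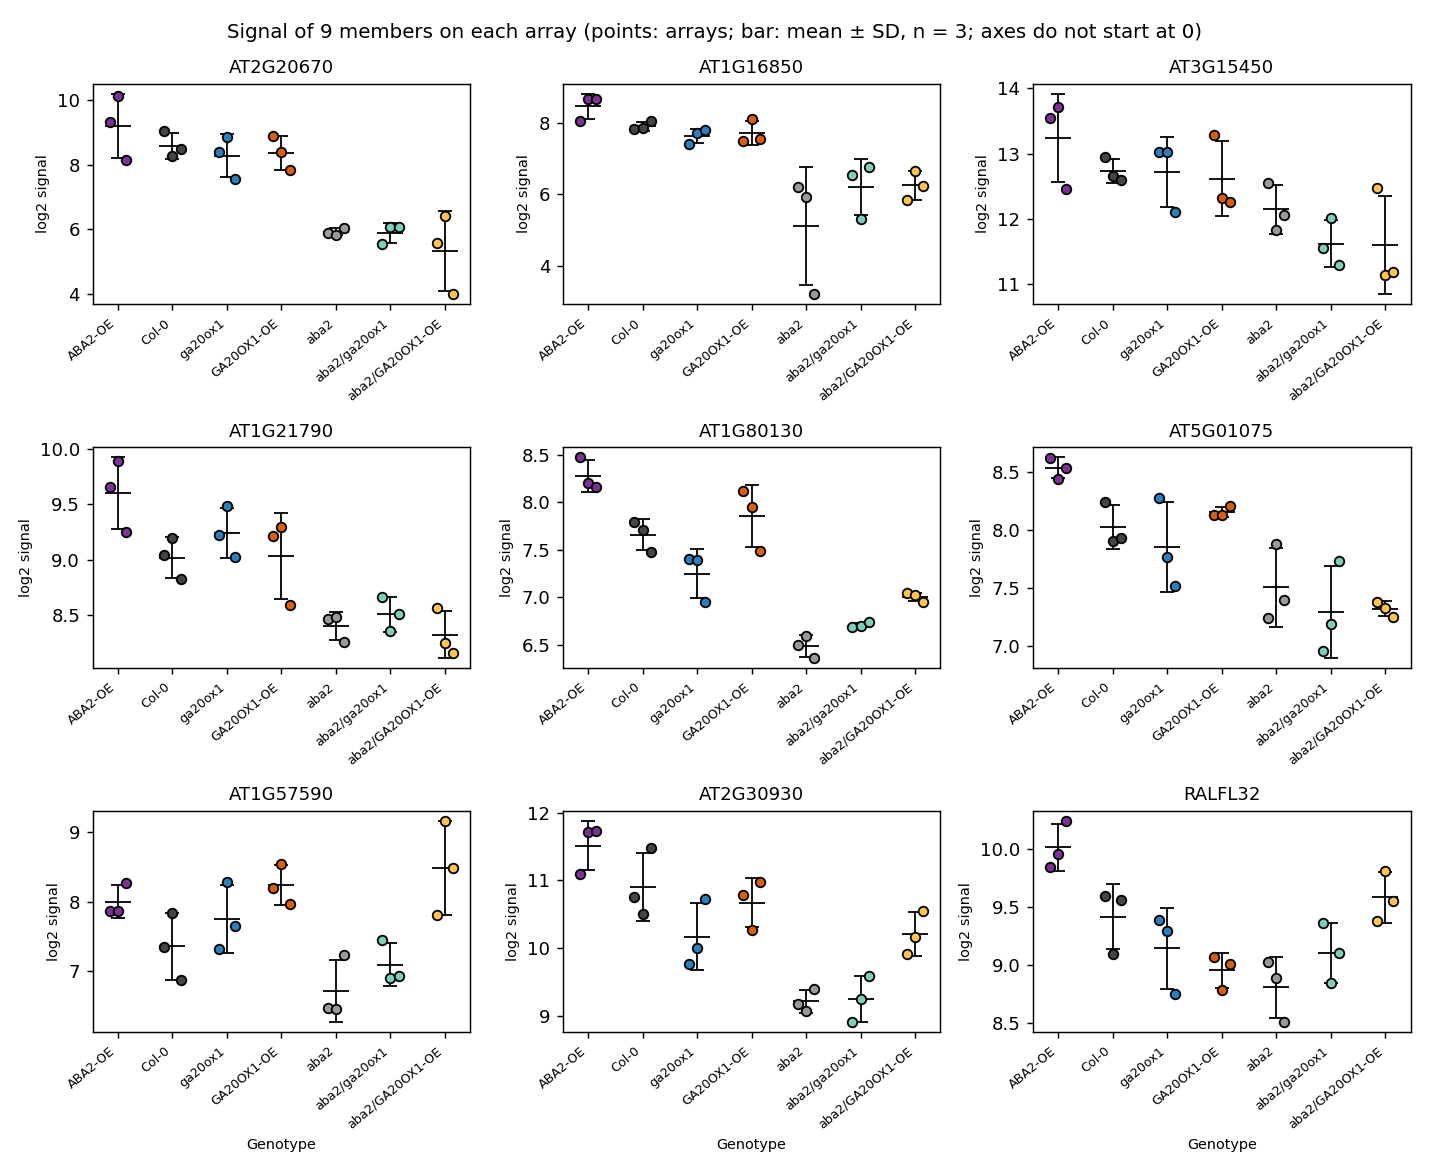
Log2 signal of 9 members (y axes, which do not start at 0) by genotype (x axes), with a point for each array and bars for mean ± SD (n = 3). AT2G20670, AT1G16850, AT1G21790 and AT1G80130 are lower in each combination than in its GA parent on every array, AT1G57590 averages 8.48 in aba2/GA20OX1-OE and 8.24 in GA20OX1-OE, and RALFL32 is lowest in aba2.

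The other 18 members, 8 of them with 1 gene, were not called in the mean effect. RALFL32, of the RALF family of secreted signalling peptides, had the highest mean effect of all members (0.29, SE 0.14, limma adjusted p = 0.18). It was 9.39, 9.29 and 8.74 in ga20ox1, 9.36, 8.84 and 9.10 in aba2/ga20ox1, 9.07, 8.78 and 9.01 in GA20OX1-OE, and 9.38, 9.81 and 9.55 in aba2/GA20OX1-OE. All aba2/GA20OX1-OE arrays were above all GA20OX1-OE arrays, which held for this member alone among the 39 and for 11.2% of all tested. The difference there was 0.63, opposite in sign to aba2 against Col-0, and did not pass the test (adjusted p = 0.073), nor did the difference between both effects of aba2 (0.67, SE 0.28, adjusted p = 0.86). Without ga20ox1 replicate 3 the difference of 0.63 was called (adjusted p = 0.045).

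TET3, a tetraspanin membrane protein gene, AT1G10140 and AT4G37240 had mean effects of -0.15, 0.11 and -0.24 with limma adjusted p = 0.6, 0.77 and 0.43. Their means in aba2/ga20ox1 were 10.32, 8.13 and 8.75, beside 10.13, 7.67 and 8.62 in aba2. The members were chosen for low values in aba2, so the lower level there is a description only. In AT3G19680, a DUF1005 family gene, 1 array decided the value. Its signals in aba2/GA20OX1-OE were 8.41, 11.23 and 9.25, against 9.92, 10.10 and 9.55 in GA20OX1-OE. The mean effect was -0.55 (SE 0.33, adjusted p = 0.31) with all arrays and -0.95 (adjusted p = 0.014) without aba2/GA20OX1-OE replicate 2.

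Whether the effect of aba2 differed between the GA backgrounds was tested directly. No member passed (limma, 0 lower and 0 higher), where 0.0188% of all tested were lower and 0.0628% higher, 13 probe sets in all. Unadjusted, 0 members were lower and 3 higher (7.69%) at p under 0.05, beside 841 of all 15923 tested in either direction. The median difference of the effects was 0.20 over the members and 0.04 over all tested. Among positive differences the highest was in 245325_at, with 1.47 (SE 0.50, adjusted p = 0.69), followed by 260904_at with 1.05 (SE 0.37, adjusted p = 0.73) and AT1G57590 with 0.91 (SE 0.45, adjusted p = 0.96). The lowest was -1.04 in 253161_at (SE 0.92, adjusted p = 1). A miss of the threshold does not show that both effects were equal.

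High and low GA20OX1 were compared next. With ABA2 intact, 1 member, 260957_at, rose in GA20OX1-OE against ga20ox1 and 0 fell, where 0.0691% of all tested rose and 0.0628% fell. The median difference was 0.09 over the members and 0.06 over all tested. The arrays of GA20OX1-OE were all above those of ga20ox1 for 7 members and all below for 0, beside 8.74% and 6.21% of all tested. Unadjusted, 6 members were higher (15.4%) and 0 lower at p under 0.05, beside 1571 of all 15923 tested in either direction.

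The same comparison was made in the aba2 mutant. That it differs from the one with ABA2 intact was tested above, as the difference of both aba2 effects, and no member passed. In aba2/GA20OX1-OE against aba2/ga20ox1, 9 members rose and 0 fell (23.1% of the members), where 2.73% of all tested rose and 1.18% fell. The median was 0.24 over the members and 0.11 over all tested, 27 members had a positive difference beside 61.4% of all tested, and the arrays were all higher for 12 members (30.8%) beside 15.9%. The general shift went with array medians of 148.6 to 187.5 in aba2/GA20OX1-OE and 135.1 to 146.9 in aba2/ga20ox1, and after quantile normalization 5 members were called. The summed level of the 3 root markers named of 5 was also lower in aba2/GA20OX1-OE, at 8.31 to 9.51 against 9.93 to 10.26. This sum is mostly PYK10, a beta-glucosidase gene of roots and seedlings (-1.31, limma adjusted p = 0.0049). EXPA18 went the other way without passing (0.45, limma adjusted p = 0.68). EXPA7, with means of 2.62 in aba2/GA20OX1-OE and 4.05 in aba2/ga20ox1, was too low to be tested. The part of the array medians or of PYK10 in the members' differences was not tested. The count was 2 without aba2/GA20OX1-OE replicate 2 and 4 without aba2/ga20ox1 replicate 1 or replicate 2. It was 5 without aba2/GA20OX1-OE replicate 3, and 4 without the pair of doubted arrays. The counts under these other settings are of members alone, without the share of all probe sets called.

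**Figure D4:**
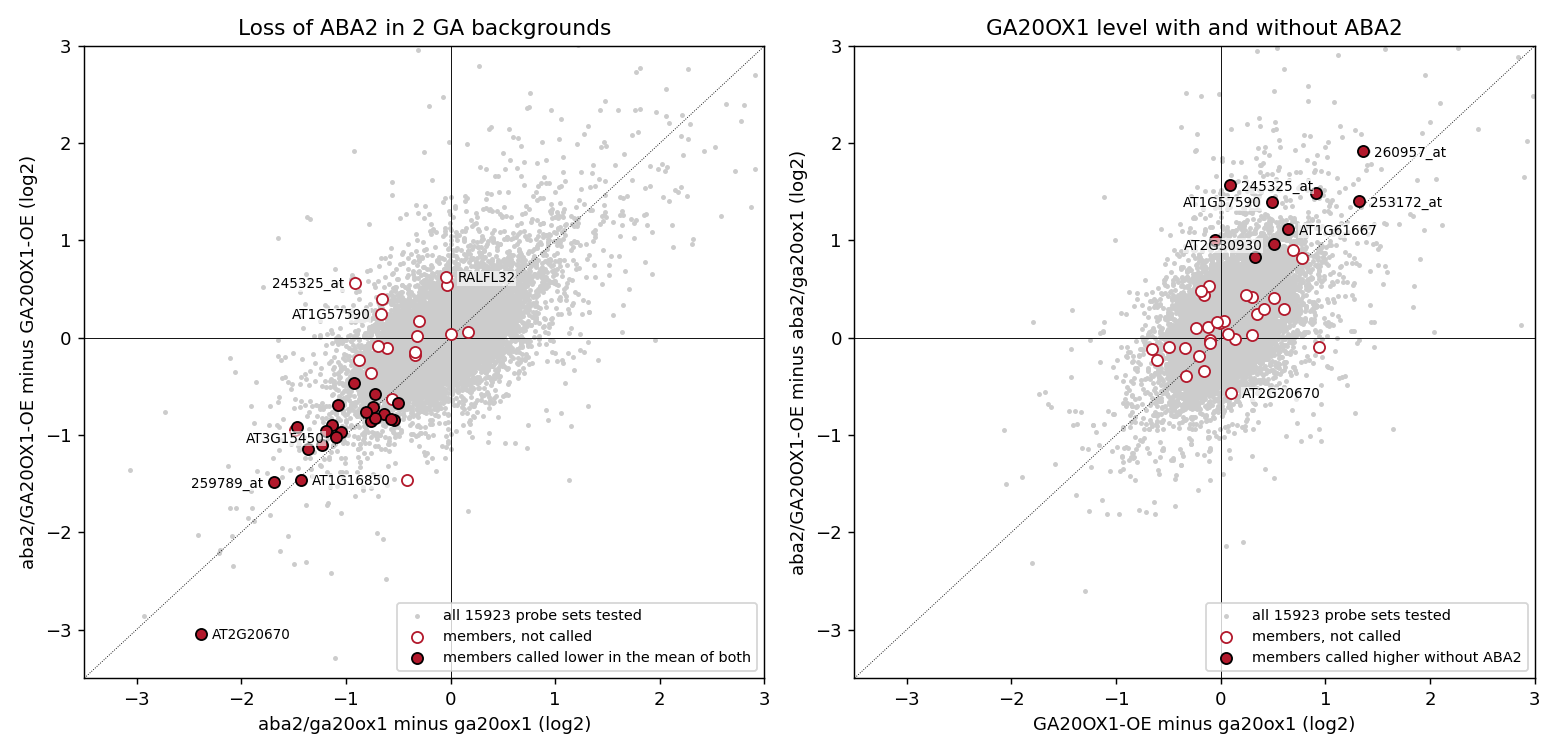
Left, the log2 difference made by aba2 in GA20OX1-OE (y axis) against that in ga20ox1 (x axis), and right, GA20OX1-OE minus ga20ox1 in the aba2 mutant (y axis) against the same with ABA2 intact (x axis), for all 15923 probe sets tested (grey) and the 39 members (red). The 21 members called lower in the mean effect (filled, left) lie below 0 on both axes, and the 9 called higher without ABA2 (filled, right) lie above 0 on the y axis, with 48 and 15 probe sets outside the axes drawn.

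The 9 included 3 with 1 gene. AT1G57590, of the pectin acetylesterase family that removes acetyl groups from wall pectin, was 7.44, 6.89 and 6.92 in aba2/ga20ox1 and 7.80, 9.16 and 8.48 in aba2/GA20OX1-OE. In ga20ox1 it was 7.32, 8.28 and 7.64, and in GA20OX1-OE 8.20, 8.54 and 7.97. The first pair of groups was apart and the second overlapped. The aba2 arrays, whose low values helped choose the members, were at 6.46, 6.44 and 7.22. AT1G57590 rose 2.63-fold in aba2/GA20OX1-OE against aba2/ga20ox1 (1.40, SE 0.32, limma adjusted p = 0.014). The call ended without aba2/ga20ox1 replicate 2 or 3 or aba2/GA20OX1-OE replicate 2 (adjusted p = 0.053, 0.069 and 0.072) and without the pair of doubted arrays (0.051), and its mean effect of aba2 was -0.21 (adjusted p = 0.61).

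AT2G30930 was called along both axes, each time in a comparison that uses the aba2/ga20ox1 arrays. It was 9.77, 10.01 and 10.73 in ga20ox1, 10.79, 10.26 and 10.97 in GA20OX1-OE, 8.91, 9.25 and 9.58 in aba2/ga20ox1 and 9.91, 10.16 and 10.55 in aba2/GA20OX1-OE. The aba2/ga20ox1 arrays lay below all the others, and the 3 remaining groups overlapped. Comparisons without aba2/ga20ox1 did not pass. These were aba2 in GA20OX1-OE (-0.47, limma adjusted p = 0.44) and GA20OX1-OE against ga20ox1 with ABA2 intact (0.50, limma adjusted p = 0.53). AT2G30930 fell in ga20ox1 (-0.92, limma adjusted p = 0.046) and in the mean effect (-0.70, SE 0.19, adjusted p = 0.018), and rose in aba2/GA20OX1-OE against aba2/ga20ox1 (0.96, SE 0.27, adjusted p = 0.045). These calls were close to the threshold: of the 30 other settings, 14 ended the first, 4 the second and 18 the third (adjusted p up to 0.24, 0.058 and 0.21).

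AT1G61667, of the DUF538 family, was 6.52, 6.51 and 7.23 in aba2/ga20ox1 and 7.40, 8.28 and 7.93 in aba2/GA20OX1-OE, a rise of 1.12 (SE 0.29, limma adjusted p = 0.032). With ABA2 intact it was 7.21, 6.93 and 7.01 in ga20ox1 and 7.54, 7.59 and 7.96 in GA20OX1-OE. Both pairs of groups were apart. The call was lost after quantile normalization (0.89, adjusted p = 0.096), with no low-signal filter (adjusted p = 0.051) and without any of 4 arrays, aba2/ga20ox1 replicates 1 and 2 and aba2/GA20OX1-OE replicates 2 and 3 (adjusted p from 0.097 to 0.12), as well as without the pair of doubted arrays (0.12).

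Probe sets without a single gene, singled out after their values were seen, held the largest differences between high and low GA20OX1. In 260957_at the signals were 8.44, 8.23 and 7.74 in ga20ox1 and 10.12, 9.25 and 9.14 in GA20OX1-OE, and 6.54, 6.64 and 6.83 in aba2/ga20ox1 against 8.54, 9.11 and 8.12 in aba2/GA20OX1-OE. High GA20OX1 was above low on every array in both states of ABA2. The rise was 2.57-fold with ABA2 (1.36, limma adjusted p = 0.032), a call that 8 of 30 other settings ended, and 3.78-fold without it (1.92, SE 0.26, adjusted p = 0.00014), a call that none of the 30 ended. The mean effect of aba2 on the same probe set was -1.19 (SE 0.19, adjusted p = 0.00014).

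In 267460_at the signals were 8.00, 7.80 and 7.69 in aba2/ga20ox1 and 9.43, 9.05 and 9.47 in aba2/GA20OX1-OE, a rise of 2.80-fold (1.49, SE 0.26, limma adjusted p = 0.0024) that was also called under all 30 other settings. With ABA2 it was 7.61, 7.92 and 8.07 in ga20ox1 and 9.52, 8.34 and 8.46 in GA20OX1-OE, a difference of 0.91 that did not pass (adjusted p = 0.22). The ga20ox1 and aba2/ga20ox1 arrays overlapped throughout, below those of aba2 (8.42, 8.16 and 8.43). In 245325_at the aba2/ga20ox1 arrays, at 5.71, 6.37 and 6.46, were the lowest of the series, and the rise to aba2/GA20OX1-OE, at 7.05, 8.17 and 8.02, was 1.57 (SE 0.36, adjusted p = 0.014). That call ended without aba2/ga20ox1 replicate 1 or replicates 2 or 3 of aba2/GA20OX1-OE (adjusted p = 0.075, 0.06 and 0.068) and without the pair of doubted arrays (0.051).

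Of the 39 members, 12 were called in none of the 6 comparisons, 6 of them with 1 gene. AT5G05960, of the lipid-transfer protein family, was the nearest among the named. It came nearest in aba2/GA20OX1-OE against aba2/ga20ox1 (0.82, SE 0.24, limma adjusted p = 0.053). It was 9.35, 9.26 and 9.23 in ga20ox1, 9.03, 9.16 and 9.64 in aba2/ga20ox1, 10.44, 9.87 and 9.85 in GA20OX1-OE and 9.83, 10.89 and 9.57 in aba2/GA20OX1-OE. With ABA2 intact the ga20ox1 arrays were all below those of GA20OX1-OE (0.78, limma adjusted p = 0.25), and in the aba2 mutant the arrays overlapped.

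Genes of the ABA pathway were looked up by locus. The annotation named 0 of 48 genes of ABA synthesis and breakdown, receptors, phosphatases, kinases and transcription factors, and 4 of 24 ABA-induced targets. None of the 4 could be a member, since the selection rule drops names beginning COR or LTI. COR15A and LTI30 had met its thresholds. All 4 targets fell in the mean effect of aba2. COR15A, a chloroplast protein gene of cold acclimation, differed by -2.89 (SE 0.24, limma adjusted p = 2.6e-08), beside -2.71 for AT2G20670, the lowest value among the members. COR47, COR15B and LTI30 differed by -1.14, -0.77 and -0.51. None of the 4 was called between aba2/GA20OX1-OE and aba2/ga20ox1.

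Because AT3G15450 marks sugar starvation, genes of that kind were followed too. The annotation named 3 of 11. AT3G15450 fell in the mean effect of aba2. The others did not pass there, AT3G15630 at 0.21 and AT2G05540 at -0.16 (limma adjusted p = 0.22 and 0.7). AT3G15630 fell in another comparison, aba2/GA20OX1-OE against aba2/ga20ox1 (-0.74, SE 0.15, limma adjusted p = 0.006), in which AT3G15450 differed by -0.02. AT2G05540 was not called. Of 10 clock genes the annotation named GI, which was called in none of the 6 comparisons.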

How the data were processed

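Linear intensity values were deposited, made by the authors with MAS5 per the submitters' processing notes, which name no version. The trimmed mean was about 500.1 on every array, so the authors' values had been scaled before deposition. The 64 control probe sets of 22810 were left out, signals were logged to base 2 without further normalization, and the 30% with the lowest mean (bound 5.257 on the log2 scale) were left out, which kept 15923. All 39 members passed, since the rule's own floor lies higher.

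The 6 comparisons among the GA genotypes came from a single limma 3.58.1 model (R 4.3.3) with a mean for each of the 7 genotypes, fitted to 21 arrays by lmFit and moderated by eBayes with trend. Adjusted p-values are Benjamini-Hochberg values over all probe sets tested, two-sided, called under 0.05. All values are log2 signals or log2 differences, and 3 arrays a genotype limit their precision. On simulated data for aba2 in ga20ox1, 10%, 58%, 96% and 100% of 50 probe sets changed by 0.5, 1, 2 and 3 were recovered, with 6 false calls. The simulated noise was normal and independent between arrays, without outlying arrays or structure by replicate number. The rates on the real arrays may therefore differ. The 12 GA arrays share no array with those the rule compared, but the mean over 21 arrays and the common spread use all of them.

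The members, the gene lists and the comparisons were chosen with earlier results of these data known. The rule for named genes takes all members with 1 gene, and called genes of the lists. Alternatives were no intensity trend, array quality weights, a replicate block, the 12 GA arrays alone, no or a 50% low-signal filter, a pseudocount, quantile normalization and each array left out in turn. Leaving out both doubted arrays together was added after seeing the data. Promoter sequences were not analysed here. Figures used Python 3.11.15 with pandas 2.3.3, numpy 2.4.6 and matplotlib 3.10.9.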

Additional observations from a re-analysis of the deposited data

How the results depend on the processing

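In the mean effect of aba2, 21 members fell, leaving out 1 array gave 19 to 24, and the other settings gave 18 to 30. The median of this effect ran from -0.77 to -0.66 with 1 array left out, and 0 members rose under any setting. Fits without an array of Col-0, aba2 or ABA2-OE could not move this median. All counts are of the members chosen on all arrays. A new choice without ABA2-OE replicate 2 kept 18 of these members, and without ABA2-OE replicate 3 it kept 31. In ga20ox1, 6 to 12 members fell with 1 array left out (median -0.78 to -0.66, 0 rises) and 29 with array quality weights. In GA20OX1-OE, 3 to 14 fell (median -0.81 to -0.58, 0 to 1 rises), 18 with array quality weights, 6 with no intensity trend, 6 on the 12 GA arrays alone and 4 with both doubted arrays left out. Between high and low GA20OX1 with ABA2 intact, the 1 rise became 0 with no intensity trend, on the 12 GA arrays alone, with no low-signal filter and after quantile normalization, and 8 with array quality weights, which also gave 1 fall. With 1 array left out it was 0 to 1, and the median ran from -0.01 to 0.21, negative without ga20ox1 replicate 3 (-0.0084) or GA20OX1-OE replicate 1 (-0.012). Without ABA2 the 9 rises became 5 after quantile normalization, 4 with both doubted arrays left out, and 2 to 9 with 1 array left out (median 0.19 to 0.31, 0 falls). The difference between both effects of aba2 called 0 members under every setting, and its median ran from -0.0167, without GA20OX1-OE replicate 3, to 0.29. The selection gave 24 to 53 members with 1 array left out and 0 at a threshold of 1. Counts under the other settings are of members alone, without the share of all probe sets called under the same setting. A rise or fall in a count may therefore be general. The cause of these changes was not tested, beyond the fewer arrays or probe sets some settings use.

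No label says what a shared replicate number stands for, and not every pair of same-numbered arrays deviated together, so the numbers were not used as pairs. Deviations of same-numbered arrays correlated at -0.247 to 0.486 with a median of 0.0987, beside a median of -0.0433 for different numbers, and 16 of 21 arrays correlated best with their own number, a hint of shared structure from the data. With the replicate block 15, 15 and 23 members fell in ga20ox1, in GA20OX1-OE and in the mean effect, and 10 rose in aba2/GA20OX1-OE against aba2/ga20ox1. These counts too come without the share of all probe sets called with the block. The block also called both single effects of AT3G15450 (limma adjusted p = 0.0099 and 0.016) and that of AT2G41190 in ga20ox1 (0.038). The promoter motifs planned for the members were not run.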
